A study of Mus musculus with 4 samples.

Results

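The 38 genes described here encode proteins of the lysosome or switch its genes on. They comprise 20 soluble hydrolases, 3 cofactors and soluble lipid carriers, 6 membrane proteins, 7 parts of the proton pump and 2 transcription factors of the MiT family. They were taken by symbol from the 21044 genes of the deposited expression table, each symbol matched 1 row, and the rule uses no measured value. The cathepsin proteases were left out of the 38 and are given only among the other lysosomal genes.

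The libraries were made from total RNA of microglia, the resident macrophages of the brain, taken from the corpus callosum, the main white matter tract between the hemispheres, of mice at postnatal day 7. The WT group (genotype label wt) was Lag3 fl/fl, so its Lag3 gene carried the floxed allele, and it had 2 libraries. The cKO group (genotype label ko) was Lag3cKO-Cx3, in which Lag3, an inhibitory immune receptor gene, was deleted through a Cx3cr1 driver, and it also had 2 libraries. The labels name the driver for the cKO group only, so its part and that of the deletion cannot be told apart. Which Cre allele was used, and whether and when it was induced, is not given in the sources used. Whether each library holds 1 animal or several is not stated, so a p-value here covers the spread among libraries alone, which may be technical.

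Lysosomes are acidic organelles in which enzymes break down proteins, lipids, glycans and nucleic acids that arrive by endocytosis, phagocytosis or autophagy. The vacuolar ATPase pumps protons into the lumen, most soluble hydrolases are carried there on a mannose 6-phosphate tag, and heavily glycosylated membrane proteins line the inner face of the membrane. TFEB and TFE3, when they enter the nucleus, bind short E-box sequences near the start of many of these genes and raise their transcription. Microglia depend on this machinery because they take up dying cells, synaptic material and, in developing white matter, myelin and oligodendrocyte debris.

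Total counts were 14645187 to 16770162 per library. Lag3 counts were 6064 and 10007 in WT against 595 and 257 in cKO, as the labels imply. Cx3cr1, the gene that names the driver, was at 6430 and 6541 CPM, read counts scaled to library size, in WT and 3398 and 3028 CPM in cKO. All 12 microglial markers examined were detected in every library, with summed levels of 28330 to 32289 CPM. The second cKO library stood apart. It had 12787 genes with a count against 14840 to 15899 in the other 3, a neutrophil and monocyte marker sum of 147 CPM against 13.8 to 25.2, and an astrocyte marker sum of 524 CPM against 183 to 239. It also held 289.8 CPM of Xist and no count of the 4 Y-linked transcripts examined, whereas the other 3 libraries held 89 to 107 CPM of Ddx3y and at most 6.95 CPM of Xist. The group difference is therefore also a difference in the sex-linked transcripts of 1 library, and many of the fold changes and list medians are also given without that library.

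Lysosomal transcripts were among the most abundant of these microglia. Levels between genes are compared in FPKM, read counts set against gene length and library size. Legumain (Lgmn), the asparaginyl endopeptidase that trims other lysosomal proteases, ranked 7 among all genes in WT, at 3148 and 3115 FPKM. Prosaposin (Psap), the precursor of the activator proteins of sphingolipid breakdown, ranked 17, at 2324 and 2251 FPKM. Progranulin (Grn), a secreted protein also delivered to lysosomes, had 1247 and 1177 FPKM in WT, and Hexa, the alpha subunit of beta-hexosaminidase, had 1061 and 979 FPKM. Of the 38 genes, 9 were among the 100 most abundant genes of the WT libraries and 25 among the top 1000.

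At the other end lay Ids, Galc, Tfeb, Atp6v0c, Npc1 and Mcoln1, the 6 members under 10 FPKM in WT. The WT mean of Lgmn was 1369 times that of Ids, and the median member had 104 FPKM. Neighbours in the order of WT means were often not separated, since the values of 15 of the 37 neighbouring pairs overlapped between the 2 WT libraries. The members together made up 4.0% and 4.08% of all FPKM in the WT libraries, and 4.05% and 4.46% in cKO replicates 1 and 2. Legumain alone supplied 23.7%, 23.3% and 23.7% of the members' FPKM in WT replicates 1 and 2 and cKO replicate 1, and 35.7% in cKO replicate 2. The plot of levels by library shows this spread, with Lgmn and Psap at the right end and Galc, Ids and Tfeb at the left.

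**Figure D1:**
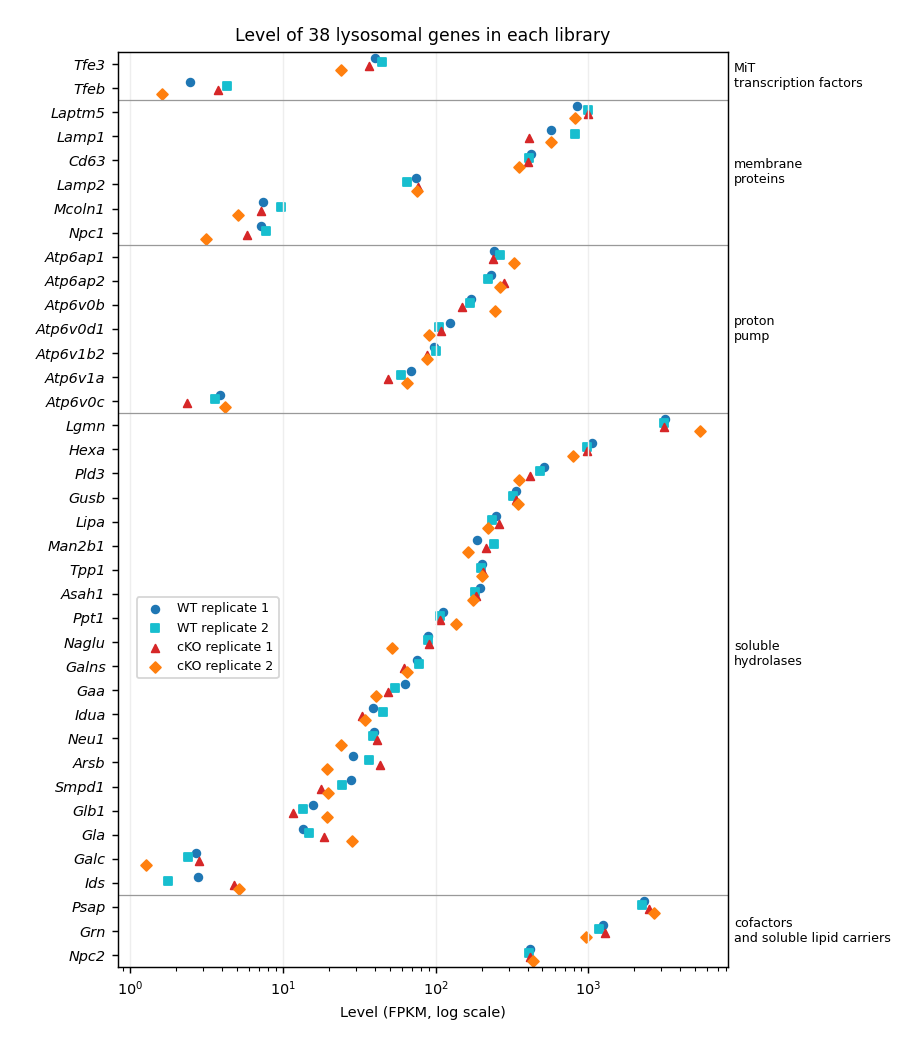
FPKM (log scale, horizontal axis) of the 38 genes in each of the 4 libraries, grouped by role and ordered within a role by the WT mean. The 4 points of most genes lie close together, and cKO replicate 2 (diamonds) is the point farthest out for Lgmn at 5392 FPKM and for Galc at 1.27 FPKM.

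Between the groups, no member passed the test. edgeR's quasi-likelihood test across 13086 genes called 0 of the 38 members at a Benjamini-Hochberg adjusted p under 0.05, where it called 0% of all genes, and the adjusted p was 0.9997 for each member. At an unadjusted p under 0.05, edgeR's test gave 0 members against 4.65% of all genes. The lowest unadjusted edgeR p of a member was that of Pld3, 0.0507. DESeq2 called 0 members, the lowest adjusted p being 0.726, against 0.387% of all genes. Lag3, the deleted gene, had a log2 fold change of cKO over WT of -4.35. edgeR did not call it either, at an adjusted p of 0.9997, whereas DESeq2 did, at 1.46e-20. That edgeR called 0 members is therefore no sign of equal levels. An exact permutation test of 2 against 2 libraries cannot give a two-sided p below 0.33. What follows is therefore a description of values, in CPM scaled by TMM for 1 gene across libraries, with log2 fold changes of cKO over WT.

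In 4 members both cKO values lay above both WT values, which is 10.5% of the 38 against 15.8% of all genes tested. These were Ids, Gla, Atp6ap2 and Psap. In 14 members both cKO values lay below both WT values, which is 36.8% against 20.0% of all genes. These were Tfe3, Npc1, Lamp1, Mcoln1, Cd63, Smpd1, Gaa, Pld3, Idua, Galns, Hexa, Asah1, Tpp1 and Atp6v1b2. The groups overlapped in the other 20. Groups apart in either direction thus made up 47.4% of the members and 35.9% of all genes. The median log2 fold change was -0.19 over the members and -0.03 over all genes, with 11 members fitted higher and 27 lower. The median of the members was -0.06 when cKO replicate 2 was left out and -0.27 when cKO replicate 1 was. In the same fits the median of all genes was -0.02 and -0.20. In bulk libraries such as these, less RNA of a gene per cell and fewer cells that hold it cannot be told apart.

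Of 9 astrocyte markers tested, 6 had both cKO values above both WT values, 66.7% against 15.8% of all genes. The summed astrocyte marker level was 225 and 183 CPM in WT and 239 and 524 CPM in cKO. Oligodendrocyte markers summed to 123 and 116 CPM in WT and 226 and 151 CPM in cKO. No astrocyte marker was at 0 in WT replicate 1 or cKO replicate 1, and 1 of 10 was in each of the other libraries. The part of these cells in the members' values was not tested.

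**Figure D2:**
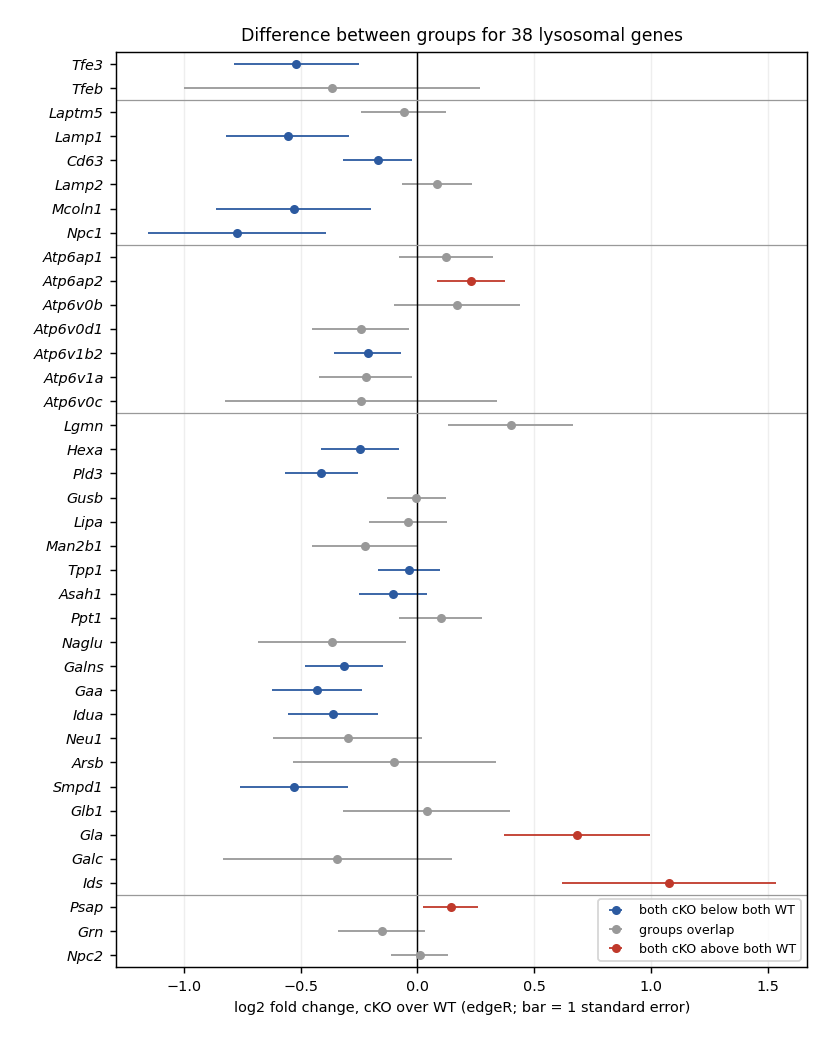
Fitted log2 fold change of cKO over WT (horizontal axis, edgeR) of the 38 genes, with bars of 1 standard error, in the same order by role. Blue marks the 14 genes with both cKO values below both WT values, red the 4 with both above, and grey the 20 whose groups overlap. Ids lies farthest right at 1.08 and Npc1 farthest left at -0.77.

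The factors that switch on lysosomal genes came first. Tfe3 (chromosome X, 7762560 to 7775202, plus strand, GRCm38) was the more abundant of the 2, at 377 and 419 CPM in WT and 340 and 215 CPM in cKO. Both cKO libraries were lower, most so the second, and the log2 fold change was -0.52 (SE 0.27), or -0.23 without cKO replicate 2. Tfeb was at 14.1 and 24.8 CPM in WT and 21.2 and 8.98 CPM in cKO. Its groups overlapped, and its fold change had the opposite sign with each cKO library alone, -1.12 without cKO replicate 1 and 0.12 without cKO replicate 2. Neither value speaks to where the proteins were in the cell.

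The core sequence these factors bind, CACGTG, which reads the same on both strands, was searched in RefSeq promoters (GRCm38.p6) from 250 bases before to 50 bases after each start site. Promoters were matched for 34 of the 38 members, 41 promoters in all. The core was present for 10 members, 29.4%, against 8.09% of 27025 genes and 7.15% of 32851 promoters of the same length. The longer form GTCACGTG, searched on both strands and always overlapping the core, was present for 8 members, 23.5%, against 2.55% of genes. The palindrome with GT before and AC after the core was present for 0 members and 0.37% of genes. A match describes letters and shows no binding.

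The members with the core were Lamp1 with 4 copies, Mcoln1, Atp6v0b and Gla with 2 each, and Atp6v0d1, Atp6v1a, Gaa, Glb1, Lgmn and Naglu with 1 each. The stretches below are shown because they hold the repeated cores, together with the single cores of Lgmn, the most abundant member, and Naglu, which lay at 1 level in 3 libraries and lower in the last. Each runs 5′ to 3′ on the strand of its gene, with the core in capitals. All cover the 80 bases before a RefSeq start site, except that of Gla, which covers positions -240 to -161. The stretches of Lgmn and Naglu lie inside the deposited gene spans. On the minus strand that of Lgmn begins at 102439813, and on the plus strand that of Naglu begins at 101070012.
Lamp1, chr8:13159081-13159160, plus strand: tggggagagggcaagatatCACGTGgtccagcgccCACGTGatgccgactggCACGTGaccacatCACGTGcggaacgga
Mcoln1, chr8:3500439-3500518, plus strand: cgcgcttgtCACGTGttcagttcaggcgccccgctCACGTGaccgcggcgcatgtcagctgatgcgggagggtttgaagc
Atp6v0b, chr4:117887330-117887409, minus strand: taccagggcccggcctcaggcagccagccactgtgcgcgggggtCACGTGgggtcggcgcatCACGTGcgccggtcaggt
Gla, chrX:134601166-134601245, minus strand: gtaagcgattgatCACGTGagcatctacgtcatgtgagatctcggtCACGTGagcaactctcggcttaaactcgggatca
Lgmn, chr12:102439093-102439172, minus strand: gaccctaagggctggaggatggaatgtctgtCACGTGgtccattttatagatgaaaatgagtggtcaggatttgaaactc
Naglu, chr11:101070014-101070093, plus strand: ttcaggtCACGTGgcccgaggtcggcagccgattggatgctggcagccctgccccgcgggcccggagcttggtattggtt

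In Lamp1 the 4 cores begin at positions -61, -45, -28 and -15 from the start site, and in Mcoln1 the 2 cores begin at -71 and -45. Members with the core did not all lie on the same side. Their log2 fold changes ran from -0.56 for Lamp1 to 0.68 for Gla, with a median of -0.23 over 10, against -0.13 over the 24 matched members without it. Between the 2 cKO libraries the medians were on opposite sides of 0. The second over the first had a median log2 ratio of 0.41 over the 10 members with the core and -0.18 over the 24 without it. The 10 ran from -0.84 for Naglu to 0.75 for Lgmn, and the 24 from -1.20 for Tfeb to 0.77 for Atp6v0c. These medians are descriptions with no test.

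Among the membrane proteins, 4 of 6 had both cKO values below both WT values, 66.7% against 20.0% of all genes tested. None had both above, against 15.8% of all genes, and the median log2 fold change of the 6 was -0.35. This median was -0.17 without cKO replicate 2 and -0.23 without WT replicate 2. Lamp1 (chromosome 8, 13159161 to 13175338, plus strand), the main glycoprotein of the lysosomal membrane, was at 1541 and 2231 CPM in WT and 1084 and 1483 CPM in cKO. The highest cKO value lay just under the lowest WT value, and the log2 fold change was -0.56 (SE 0.26). It was -0.80 without cKO replicate 2 and -0.82 without WT replicate 1. Without cKO replicate 1 it was -0.35, and without WT replicate 2, the highest library, it was -0.27. Its close relative Lamp2, which also serves chaperone-mediated autophagy, did not share this pattern. Lamp2 had 714 and 633 CPM in WT and 726 and 703 CPM in cKO, groups that overlapped, with a log2 fold change of 0.08 (SE 0.15). A share of 5.9% of the 50-base windows of Lamp1 transcripts also occurs in other genes' transcripts, mostly those of Grtp1.

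The cholesterol exporter Npc1 (chromosome 18, 12189693 to 12236400, minus strand) had the largest negative fold change of the 38. It was at 77.5 and 84.3 CPM in WT and 61.9 and 32.8 CPM in cKO. Both cKO libraries were lower, the second far more than the first, and the log2 fold change was -0.77 (SE 0.38), or -0.39 without cKO replicate 2. Its soluble partner Npc2, which hands cholesterol to NPC1 in the lumen, was nearly level, at 2259 and 2255 CPM in WT and 2244 and 2300 CPM in cKO. The SE of the Npc2 fold change of 0.01 was 0.12.

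Mcoln1, the calcium channel of the lysosomal membrane, was at 56.9 and 75.3 CPM in WT and 54.3 and 37.3 CPM in cKO. Both cKO values were below the WT values, although the first was within 3 CPM of the lowest WT value. Its log2 fold change was -0.53 (SE 0.33), or -0.29 without cKO replicate 2 and -0.32 without WT replicate 2. The tetraspanin Cd63 was at 1553 and 1535 CPM in WT and 1482 and 1262 CPM in cKO. Without cKO replicate 2 its log2 fold change of -0.17 was -0.06. A share of 11.1% of its windows also occurs in transcripts of other genes, most of it in the pseudogene Cd63-ps. Laptm5, a lysosomal protein of blood-lineage cells and the most abundant of the 6 in FPKM, had 3195 and 3850 CPM in WT and 3755 and 3005 CPM in cKO, which overlapped.

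The proton pump has a catalytic part outside the membrane (V1), a proton channel within it (V0) and accessory subunits. Among its 7 members 1 had both cKO values above and 1 had both below the WT values, 14.3% each. These shares were 15.8% and 20.0% over all genes tested. The median log2 fold change of the 7 was -0.21. The accessory subunit Atp6ap2 (chromosome X, 12587801 to 12617049, plus strand), also called the prorenin receptor, was the higher one, at 612 and 583 CPM in WT and 729 and 671 CPM in cKO. Its log2 fold change was 0.23 (SE 0.14), and 0.28 without cKO replicate 2. The subunit of the V1 ring Atp6v1b2 was the lower one, at 523 and 543 CPM in WT and 465 and 455 CPM in cKO. The values within each group were close, and the log2 fold change was -0.21 (SE 0.14), or -0.20 without cKO replicate 2.

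The catalytic subunit Atp6v1a was at 418 and 367 CPM in WT and 294 and 380 CPM in cKO, so only the first cKO library lay below the WT range. The V0 subunit Atp6v0d1 was at 225 and 191 CPM in WT and 194 and 158 CPM in cKO, and its groups overlapped by a narrow margin. Atp6v0b and Atp6v0c, which form the proton-carrying ring, and Atp6ap1 all differed between the cKO libraries more than between the groups. Atp6v0b was at 353 and 349 CPM in WT and 302 and 488 CPM in cKO. Atp6ap1 was at 732 and 810 CPM in WT and 714 and 964 CPM in cKO. Atp6v0c, at 13.2 and 12.5 CPM in WT and 7.91 and 13.8 CPM in cKO, rested on the lowest count of any member, 133. Its pseudogenes share 10.8% of its windows, so its counts are uncertain, and its FPKM of 2.34 to 4.20 stood far under the 148 to 244 FPKM of Atp6v0b. Leaving out cKO replicate 2 or 1, the median of the 7 pump genes was -0.20 or 0.10, so its sign rested on which cKO library was kept.

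The 20 soluble hydrolases included 2 with both cKO values above and 8 with both below the WT values, 10% and 40%. Over all genes tested these shares were 15.8% and 20.0%. The median log2 fold change of the hydrolases was -0.16. Without cKO replicate 2 this median was -0.03. The 2 higher ones are both X-linked. Ids (chromosome X, 70343069 to 70365084, minus strand), the iduronate sulfatase of heparan and dermatan sulfate breakdown, was at 14.4 and 9.26 CPM in WT and 24.3 and 25.6 CPM in cKO. Both cKO libraries were high and close to each other. The log2 fold change of 1.08 (SE 0.46), 2.11-fold, was the largest of the 38, and it was 1.03 without cKO replicate 2. Gla (chromosome X, 134588149 to 134601125, minus strand), the alpha-galactosidase that acts on globotriaosylceramide, was at 44.4 and 49.5 CPM in WT and 60.1 and 90.5 CPM in cKO. Its log2 fold change was 0.68 (SE 0.31), or 0.35 without cKO replicate 2.

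The lower hydrolases included enzymes of sphingolipid and nucleic acid breakdown. Smpd1 (chromosome 7, 105554360 to 105558389, plus strand), the acid sphingomyelinase, was at 94.0 and 83.4 CPM in WT and 58.7 and 64.4 CPM in cKO. Both cKO values were well under the WT range, and the log2 fold change was -0.53 (SE 0.23), or -0.60 without cKO replicate 2. Pld3 (chromosome 7, 27532000 to 27553218, minus strand), an exonuclease of single-stranded nucleic acids, was at 1502 and 1436 CPM in WT and 1208 and 1002 CPM in cKO. Its log2 fold change was -0.41 (SE 0.16), or -0.29 without cKO replicate 2. Asah1, the acid ceramidase that acts on the product of the sphingomyelinase, differed by little, at 664 and 624 CPM in WT and 621 and 578 CPM in cKO.

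Gaa, the acid alpha-glucosidase that frees glucose from glycogen, was at 303 and 264 CPM in WT and 232 and 190 CPM in cKO, giving a log2 fold change of -0.43 (SE 0.19), or -0.29 without cKO replicate 2. A pair of enzymes of glycosaminoglycan breakdown lay lower in both cKO libraries by similar amounts. The iduronidase Idua had 164 and 195 CPM in WT and 138 and 141 CPM in cKO. The sulfatase Galns had 201 and 209 CPM in WT and 163 and 167 CPM in cKO. Their log2 fold changes were -0.36 (SE 0.19) and -0.31 (SE 0.17), and -0.38 and -0.33 without cKO replicate 2. Ids, a sulfatase that works next to the iduronidase on the same chains, lay on the other side. Hexa was at 2137 and 1994 CPM in WT and 1943 and 1542 CPM in cKO, and Tpp1, the tripeptidyl peptidase, at 1055 and 1048 CPM in WT and 1045 and 1004 CPM in cKO. The gaps between the groups were small beside the spread in both genes. On the windows measure, 10.6% of Hexa is shared with Tmem202 on the opposite strand.

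The other 10 hydrolases had overlapping groups, and in several of them 1 library set the difference. Lgmn was at 7382 and 7383 CPM in WT, 7252 CPM in cKO replicate 1 and 12206 CPM in cKO replicate 2. The other libraries thus held nearly 1 level, and the log2 fold change of 0.40 (SE 0.27) was -0.03 without cKO replicate 2. Naglu, a glucosaminidase of heparan sulfate, had 238, 241 and 239 CPM in the first 3 libraries and 134 CPM in cKO replicate 2. Neu1, the lysosomal sialidase, had 149, 147 and 154 CPM and then 87.5 CPM. Galc, which degrades the myelin lipid galactosylceramide, had 40.5, 36.2 and 42.0 CPM and then 18.4 CPM.

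Arsb, a sulfatase of dermatan sulfate, was at 175 and 225 CPM in WT and 259 and 114 CPM in cKO, so its cKO libraries lay on either side of WT. For Arsb 38.5% of windows are shared, mostly with the antisense gene Gm26527, and the sources used here do not say whether counting used strand. Glb1, the lysosomal beta-galactosidase, was at 47.5 and 41.8 CPM in WT and 35 and 56.8 CPM in cKO. Man2b1, the lysosomal alpha-mannosidase, was at 1518 and 1979 CPM in WT and 1712 and 1278 CPM in cKO. The steadiest hydrolase was the beta-glucuronidase Gusb, at 1552 and 1499 CPM in WT and 1516 and 1525 CPM in cKO. The acid lipase Lipa ranged from 632 to 772 CPM and the thioesterase Ppt1 from 388 to 484 CPM over the 4 libraries, with the second cKO library at the low end of Lipa and the high end of Ppt1.

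Of the cofactors, Psap (chromosome 10, 60277627 to 60302597, plus strand) was at 6436 and 6301 CPM in WT and 6825 and 7224 CPM in cKO. Both cKO values were above the WT values by little, with a log2 fold change of 0.14 (SE 0.12), or 0.10 without cKO replicate 2. Grn was at 4373 and 4172 CPM in WT and 4412 and 3270 CPM in cKO. The first cKO library was the highest of the 4 and the second the lowest, and the log2 fold change of -0.15 (SE 0.18) was 0.04 without cKO replicate 2. Progranulin and prosaposin bind each other on the way to the lysosome, and their transcripts lay on opposite sides in cKO replicate 2.

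The members varied less between libraries than the typical gene tested. Genes were not matched for level in this comparison, and 25 members were among the 1000 most abundant genes in WT. The median absolute log2 ratio of the 2 WT libraries was 0.11 over the members and 0.34 over all genes tested, and that of the 2 cKO libraries was 0.33 and 0.71. The median absolute log2 fold change between groups was 0.24 over the members and 0.42 over all genes. Within cKO, the second library over the first had log2 ratios of -1.20 for Tfeb, -1.19 for Arsb, -1.17 for Galc, -0.91 for Npc1, -0.84 for Naglu and -0.81 for Neu1. In the other direction the ratios were 0.77 for Atp6v0c, 0.75 for Lgmn, 0.69 for Atp6v0b, 0.69 for Glb1 and 0.59 for Gla. Within WT the widest ratios were 0.79 for Tfeb and -0.61 for Ids.

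Among the members, the cKO ratio tended to be lower for longer genes, by the length used for FPKM. Over the 38 members, which share their libraries and are not independent, the log2 ratio of cKO replicate 2 over replicate 1 had a Spearman rho of -0.41 with length and a Pearson r of -0.50 with log10 length. Over the 6167 genes with a mean level of 20 CPM or more, the same values were -0.14 and -0.13. For the 2 WT libraries the members gave 0.19 and 0.16. A split at 4 kb, chosen after the values were seen, gave medians of -0.17 for the 16 longer members and -0.03 for the other 22, against -0.19 and 0 for all genes tested. Galc at 14.9 kb, Npc1 at 10.7 kb and Tfe3 at 9.26 kb were all lower in cKO replicate 2, and Lgmn at 2.32 kb and Atp6v0b at 2.05 kb were higher. Other members did not follow this order, since Naglu at 2.66 kb had a ratio of -0.84 and Hexa at 2.00 kb one of -0.33, while Lamp2 at 9.55 kb had one of -0.05. The part of length in the members' values was not tested.

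**Figure D3:**
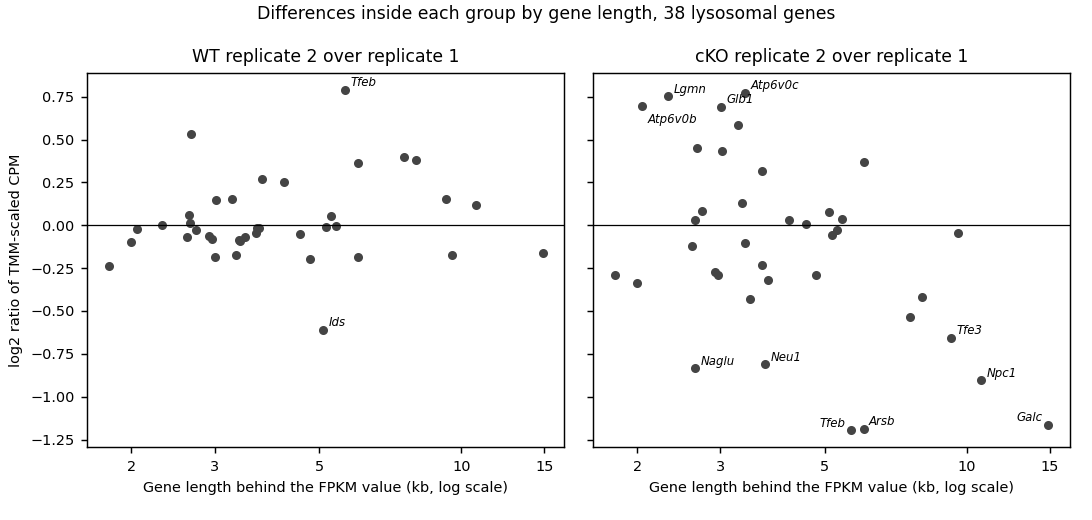
Log2 ratio of TMM-scaled CPM of replicate 2 over replicate 1 (vertical axis) against gene length in kb (log scale) for the 38 genes, in WT (left) and cKO (right). Genes with a ratio beyond 0.6 in either direction are named. In cKO the points run from Atp6v0c at 0.77 down to Tfeb at -1.20. Galc, the longest, lies at -1.17 and Lgmn, among the shorter genes, at 0.75. Naglu at 2.66 kb lies at -0.84 and Lamp2 at 9.55 kb at -0.05.

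Of the 38 genes, 6 lie on chromosome X, and 3 of these had both cKO values above both WT values. Of the 32 autosomal members 1 did, namely Psap, while 13 had both below. Among all genes tested, 15.8% lay above and 20.0% below. The median log2 fold change was 0.17 over the 6 X-linked members and -0.22 over the autosomal ones. Over all 408 X-linked genes tested the median was 0.04, with 19.9% above and 18.4% below. Ids, Atp6ap2 and Gla lay above both WT libraries in each cKO library. Gla was highest in cKO replicate 2, and Tfe3, also X-linked, was lowest there. The part of sex in these values was not tested.

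**Figure D4:**
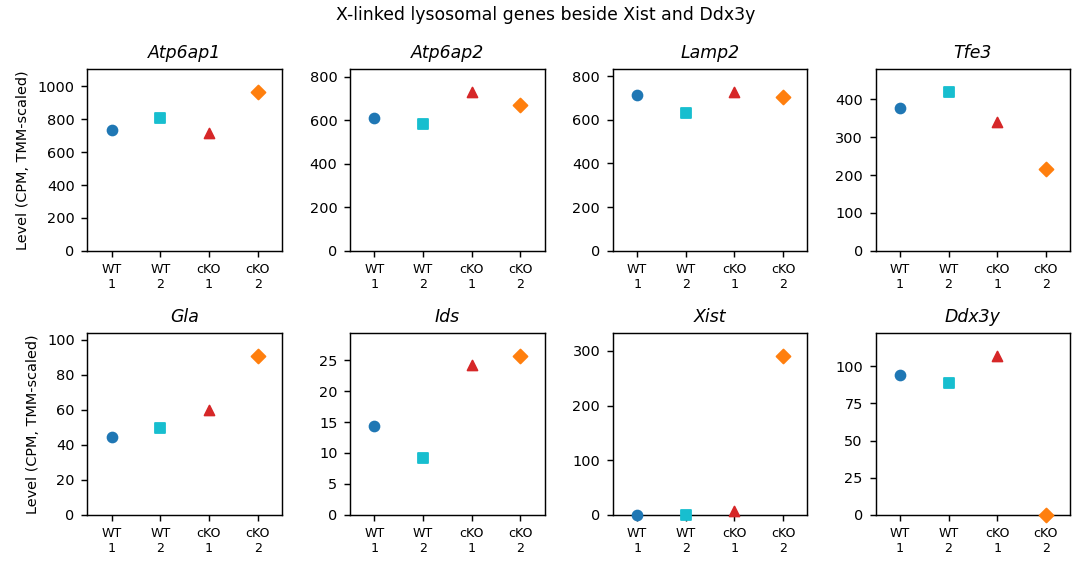
CPM scaled by TMM (vertical axis, from 0, with its own scale in each panel) of the 6 X-linked members, of Xist and of the Y-linked gene Ddx3y in the 4 libraries. The cKO points of Ids, at 24.3 and 25.6 CPM, of Atp6ap2 and of Gla lie above both WT points. Xist is highest in cKO replicate 2, at 289.8 CPM.

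The other genes of the lysosomal system, 111 in 6 lists, were examined in the same way. Of these, 103 were tested and edgeR called 0, where it called 0% of all genes. At an unadjusted p under 0.05, edgeR's test gave 3, which is 2.91% against 4.65% of all genes. Both cKO values lay above the WT values in 12 and below in 24, which is 11.7% and 23.3% against 15.8% and 20.0% of all genes, and the median log2 fold change was -0.08. The 31 other hydrolases and cofactors tested had a median of -0.03, the 28 other membrane proteins -0.08, the 13 other pump subunits -0.08, the 14 genes of nutrient sensing and other MiT factors -0.09, and the 10 cathepsins -0.01. These medians moved when 1 library was left out, mainly cKO replicate 1 and, for the pump subunits, either WT library. They ranged from -0.31 to -0.10 for the other hydrolases and from -0.37 to 0.01 for the other membrane proteins. For the other pump subunits, nutrient sensing and the cathepsins the ranges were -0.23 to 0.03, -0.59 to -0.09 and -0.06 to 0.02. The median of all genes ranged from -0.20 to 0.05 over the same fits. The filter was rerun in each, passing 14547 to 15121 genes against 13086, so the genes behind a list median can differ. With all 4 libraries, the list that lay lowest was that of mannose 6-phosphate and sortilin sorting. Its median was -0.51 over 7 genes, 5 of them with both cKO values below the WT values, 71.4% against 20.0% of all genes.

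Among the sorting genes, the adaptor Gga1 was at 88.2 and 112 CPM in WT and 78.3 and 56.0 CPM in cKO. The sorting receptor Sort1, which also carries prosaposin, was at 66.8 and 64.4 CPM in WT and 51.4 and 38.2 CPM in cKO. Gga2 had a log2 fold change of -0.71 (SE 0.39), which was -0.64 without cKO replicate 2 and -0.37 without WT replicate 2. Leaving out cKO replicate 2 or 1, the median of this list was -0.38 or -0.71, where that of all genes was -0.02 or -0.20.

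Of the other hydrolases, Plbd2, a phospholipase B-like protein, was at 59.7 and 57.1 CPM in WT and 21.6 and 27.7 CPM in cKO. Its log2 fold change of -1.25 (SE 0.31) had an unadjusted p of 0.0112 and an adjusted p of 0.9997 by edgeR, and was -1.44 without cKO replicate 2. The carboxypeptidase Scpep1 was at 324 and 308 CPM in WT and 235 and 236 CPM in cKO. The cathepsin Ctsd, the main aspartic protease of lysosomes, was at 1735 and 1419 CPM in WT and 1108 and 1026 CPM in cKO, and its log2 fold change was -0.56 (SE 0.16), or -0.51 without cKO replicate 2. In all 3 genes the cKO libraries were close together and below the WT range.

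The proton leak channel Tmem175 was at 98.8 and 123 CPM in WT and 58.5 and 78.5 CPM in cKO, and the cobalamin exporter partner Lmbrd1 lay on the other side, with a log2 fold change of 0.68 (SE 0.29), or 0.38 without cKO replicate 2. The pump subunit Atp6v0d2, which replaces the d1 form in osteoclasts and some macrophages, was at 475 and 405 CPM in WT and 350 and 185 CPM in cKO. Atp6v0e2 and Atp6v1g2, subunit forms known from brain tissue, were at 1.46 and 1.98 and at 0 and 2.86 CPM in WT. In cKO replicate 1 they were at 2.08 and 0.89 CPM, and in cKO replicate 2 at 19.4 and 27.0 CPM. The part of other cell types in these values was not tested. Rragd, a GTPase of nutrient sensing and a known target of the MiT factors, was at 10.8 and 17.9 CPM in WT and 5.88 and 0.40 CPM in cKO, the last from 6 counts. Its log2 fold change was -2.19 (SE 1.34), or -1.29 without cKO replicate 2.

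**Figure D5:**
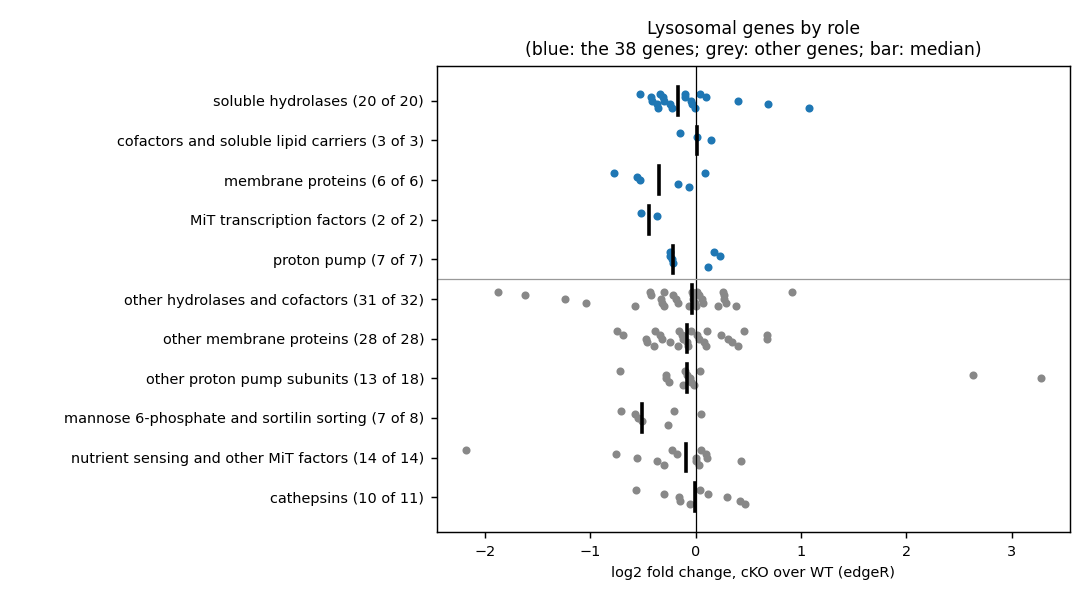
Fitted log2 fold change of cKO over WT (horizontal axis, edgeR) of the tested genes of each list, the 38 genes in blue and the other lysosomal genes in grey, with a black bar at each median. The sorting list has the lowest median at -0.51, and the points farthest right are Atp6v1g2 at 3.28 and Atp6v0e2 at 2.63.

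The authors' deposited tables each compare 1 cKO library with 1 WT library and call a gene at a difference of 2-fold or more. Every library stands in 2 of the 4 tables, so they are not independent. In the authors' deposited table of cKO replicate 1 against WT replicate 1, 0 members were called, where 20.3% of genes were called higher and 15.8% lower. Against WT replicate 2, the authors' deposited table called Ids higher and Lamp1 lower, with background shares of 17.2% and 17.6%. The authors' deposited table of cKO replicate 2 against WT replicate 1 called Gla higher and Galc and Npc1 lower, with 18.1% and 28.7% of genes called. Against WT replicate 2, the authors' deposited table called Ids higher and Npc1 and Tfeb lower, with 17.1% and 31.7% called. No member was called in the same direction in all 4, where 2.25% of 13269 genes were called higher and 5.22% lower. In the authors' deposited table the log2 fold change of Npc1 was -1.19 against WT replicate 1 and -1.30 against WT replicate 2, both for cKO replicate 2.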

How the data were processed

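RNA-seq libraries of microglia were compared, 2 WT and 2 cKO, grouped by the genotype label. Reads were processed with TopHat2 2.0.12, Bowtie2 2.2.3 and HTSeq 0.6.0, per the submitters' processing notes, which also list mm9. No settings, strand or annotation were found. Positions are given as GRCm38, since 92.1% of 21008 genes found in GENCODE M21 too lay at the same place. FPKM values were deposited by the authors for 21044 genes. Per the file headers, the 4 comparison tables of the authors give each gene's read counts and normalized signal, then the ratio of the libraries, that ratio in log2 and p-values from an unnamed test.

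Joining the tables gave counts for 18459 genes. For genes missing from both tables of a library, 4315 of 73836 values were recovered from FPKM, all whole within 1e-06 and at most 4. The 2585 genes without counts had FPKM of at most 7.42. The chi-square per degree of freedom between libraries of a group was 27.8 in WT and 107.5 in cKO, above sampling noise.

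edgeR 4.0.16 in R 4.3.3 was used on the counts, with TMM, filterByExpr, the quasi-likelihood test and Benjamini-Hochberg adjustment over all 13086 genes tested. All 38 members passed the filter. Standard errors came from the F statistic. Within-group log2 ratios used an offset of 0.5 CPM. Scripts were tested on simulated data. Shared sequence was the share of 50-base windows of a gene's GENCODE M21 transcripts found in other genes' transcripts. Of the members, 6 shared over 5% and 9 overlap an exon on the opposite strand. Promoter sequences came from RefSeq, and those of Npc1, Atp6v1b2, Galns and Asah1 were not matched.

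Named genes are the 38 members, Lag3 and Cx3cr1, and of each other lysosomal list up to 3 genes with the smallest unadjusted p at a mean of at least 5 CPM. The members and lists were chosen with earlier results of these data known, so no list carries a test. Alternatives were DESeq2 1.42.0, other scaling and filters, limma 3.58.1 on log2 FPKM with a pseudocount, a replicate block and leaving out each library.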

Additional observations from a re-analysis of the deposited data

How the results depend on the processing

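The 38 members, 18 other lysosomal genes and the list medians were followed over 14 alternatives. No member was called by edgeR under other scaling or filters, by DESeq2 or by limma. DESeq2 called 23 genes higher and 29 lower in the whole table. Leaving out 1 library, the genes called higher ranged from 0 to 171 and lower from 0 to 739, and the members called from 0 to 4. The highest counts, of members and of all genes, came without cKO replicate 1, in an edgeR fit of 14547 genes. The members called there were Pld3, Lgmn, Grn and Tfe3, with log2 fold changes of -0.56, 0.72, -0.39 and -0.89. Most genes called in that fit were not members, so these calls do not single out the members. The lone cKO library is then assumed to vary like the WT libraries. Members with both cKO values above WT ranged from 4 to 11, 10.5% to 28.9% of the 38, and below from 18 to 24, 47.4% to 63.2%. The same shares of all genes were 21.4% to 37.4% and 30.7% to 43.8%, since fewer libraries must then be separated. The members' median log2 fold change ranged from -0.27 to -0.059, and that of all genes from -0.20 to 0.05. With library totals in place of TMM, 6 members were above and 12 below, against 17.6% and 18.2% of all genes. A cut at an adjusted p under 0.001 with no fold minimum was also set here on the authors' tables, in place of their own call. By this cut 12 members passed the same way in all 4, 10.5% of the 38 higher and 21.1% lower. The shares of 13269 genes were 7.23% and 8.37%, not matched for read count.

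The fold change of Gusb, near 0, had the opposite sign with DESeq2 (0.0043), RLE scaling (0.0052), library totals (0.037) and limma at pseudocounts of 1, 0.1 and 0.5 (0.0374, 0.0375 and 0.0375). That of Tpp1 did so with library totals (0.0041) and the 3 limma fits (0.0042). Leaving out 1 library turned the sign of 16 members, with ranges of -0.034 to 0.00019 for Gusb, -0.35 to 0.34 for Glb1, -0.77 to 0.049 for Neu1, -0.82 to 0.37 for Arsb, -1.06 to 0.13 for Galc, -0.20 to 0.093 for Lipa, -0.072 to 0.24 for Ppt1, -0.029 to 0.72 for Lgmn, -0.39 to 0.043 for Grn, -0.012 to 0.020 for Npc2, -0.0049 to 0.15 for Lamp2, -0.24 to 0.089 for Laptm5, -1.12 to 0.12 for Tfeb, -0.70 to 0.099 for Atp6v0c, -0.22 to 0.47 for Atp6v0b and -0.12 to 0.31 for Atp6ap1. Of the other genes it turned that of Atp6v1g2, -0.68 to 10.79. The cause was not tested. In all alternatives 17 members stayed below 0 and 4 above. Whether same-numbered libraries share an origin is not stated. Over genes, the WT and cKO log2 ratios of replicate 2 over replicate 1 correlated at -0.046. A single pair of ratios cannot decide the question. With the replicate block the median of the members was -0.21, against -0.10 over all genes, with 0 members and 0 genes called. Each group has 2 libraries, and the lowest member count was 133.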
